A study of Rattus norvegicus with 15 samples.

Results

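The renin-angiotensin system was described here through 5 of its genes in mesenteric arteries of the rat, which feed the gut. They were Agt, which encodes angiotensinogen; Ace, which encodes angiotensin-converting enzyme; and Agtr1a, Agtr1b and Agtr2, which encode the angiotensin II receptors. Every probe set that the platform annotation assigns to 1 of these symbols alone was taken, which gave 12 of 8740 probe sets once array controls were set aside, and 5 of 4736 named genes. Agtr1a and Agtr1b had 4 probe sets each, Agtr2 had 2, and Ace and Agt had 1 each.

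RNA was measured on 15 Affymetrix arrays in 4 groups: 4 arrays of collateral and 4 of control arteries from the spontaneously hypertensive rat (SHR), and 4 of collateral and 3 of control arteries from the Wistar Kyoto rat (WKY). SHR was bred for high blood pressure, and WKY is the normotensive strain usually set beside it. Collateral arteries were produced by occluding neighbouring arteries, which diverts flow into those that remain. The labels name no drug, transgene, age, sex or time after occlusion, and whether each array was a different animal is not stated, so a p-value here measures only the spread between these samples. The question behind the series is why collateral arteries grow poorly in SHR, and it was addressed by setting collateral against control arteries within SHR and within WKY, SHR against WKY within each vessel type, and by the means and the difference of these.

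Angiotensinogen is cut by renin to angiotensin I, and ACE, an enzyme of the endothelial surface, turns this into angiotensin II. In rodents angiotensin II acts on a pair of closely related type 1 receptors, Agtr1a and Agtr1b, which drive smooth muscle contraction and growth, and on the type 2 receptor Agtr2, which is abundant in the fetus and in general opposes the type 1 receptors. The liver is the main source of circulating angiotensinogen, and fat also makes it. Blocking this system lowers blood pressure in SHR.

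The 250 bases before the annotated start of the type 1 receptor genes are shown because the 2 genes encode near-identical receptors from separate loci. RefSeq gave them for GRCr8, on the gene's strand, with any TATAAA, the TATA box core, in capitals.
Agtr1a, chr17:34435433-34435682, minus strand: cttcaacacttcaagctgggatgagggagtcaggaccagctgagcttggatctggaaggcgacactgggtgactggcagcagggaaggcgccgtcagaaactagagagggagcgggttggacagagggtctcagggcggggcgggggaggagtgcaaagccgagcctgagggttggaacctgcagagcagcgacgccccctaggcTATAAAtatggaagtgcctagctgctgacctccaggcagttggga
Agtr1b, chr2:104849263-104849512, minus strand: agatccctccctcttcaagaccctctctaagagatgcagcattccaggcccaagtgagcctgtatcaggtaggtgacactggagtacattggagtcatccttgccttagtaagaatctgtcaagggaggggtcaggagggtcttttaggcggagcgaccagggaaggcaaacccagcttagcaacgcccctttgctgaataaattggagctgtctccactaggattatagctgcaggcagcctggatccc
The Agtr1a window held TATAAA once, beginning 45 bases before the start, and the Agtr1b window held it on neither strand, against 12.9% of 33469 rat promoter windows of this length with a match on either strand. GGGCGG, the core of a GC box, occurred 2 times, overlapping, in the Agtr1a window and 0 times in that of Agtr1b, against 30.5% of windows with a match. The longest run of bases shared by the 2 windows was 10. The annotated Agtr1a gene reaches 91 bases further upstream than the start used here. No promoter activity was measured in these arteries, and a match is only a description of the letters.

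Some arrays and groups differed in ways that touch all values below. SHR collateral 3 stood apart: its spike-in controls, RNA added in fixed amounts, averaged 354583 units of signal, against 26654 to 130880 elsewhere. Its low end was raised, with a 20th percentile of 171 in signal units, against 43.4 to 83.3 elsewhere, and its median Spearman correlation with the other arrays was 0.691, against 0.866 to 0.896. The 3' to 5' ratio of the array's housekeeping controls, which rises as RNA degrades, on the log2 scale was 1.64 to 2.31 on the SHR arrays (mean 1.97) and 2.07 to 2.62 on the WKY arrays (mean 2.35), so it moved with strain. The summed signal of the 6 smooth muscle markers on the array was 92049 to 479410 in SHR collateral arteries, 178121 to 347328 in SHR control arteries, 260748 to 442758 in WKY collateral arteries and 222004 to 351087 in WKY control arteries, and none of them was at 0.

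Of the 12 member probe sets, 7 passed the filter on low signal and entered the test: 3 of Agtr1a, 2 of Agtr1b, and those of Ace and Agt. The other 5, both of Agtr2 among them, were too dim on most arrays. No member changed past an adjusted p of 0.05 in any of the 7 comparisons (limma with Benjamini-Hochberg adjustment over 6512 probe sets). The member count was 0 of 7 each time. Over all probe sets tested, the calls made up 0% for collateral against control arteries in SHR, in WKY, in the mean and in the difference of these changes, 0% for SHR against WKY collateral arteries, 0.0307% for SHR against WKY control arteries, and 0.891% for the mean of the strain differences. At an unadjusted p under 0.05, 1 member probe set passed in the mean of the collateral changes (5.11% of all), 1 in SHR against WKY collateral arteries (7.62%), 1 in the mean of the strain differences (11.9%), and 0 in SHR collateral against control (3.76%), WKY collateral against control (3.16%), SHR against WKY control (6.46%) and the difference of the collateral changes (1.9%). All the members named by the first 3 counts were probe sets of Agtr1a.

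**Figure D1:**
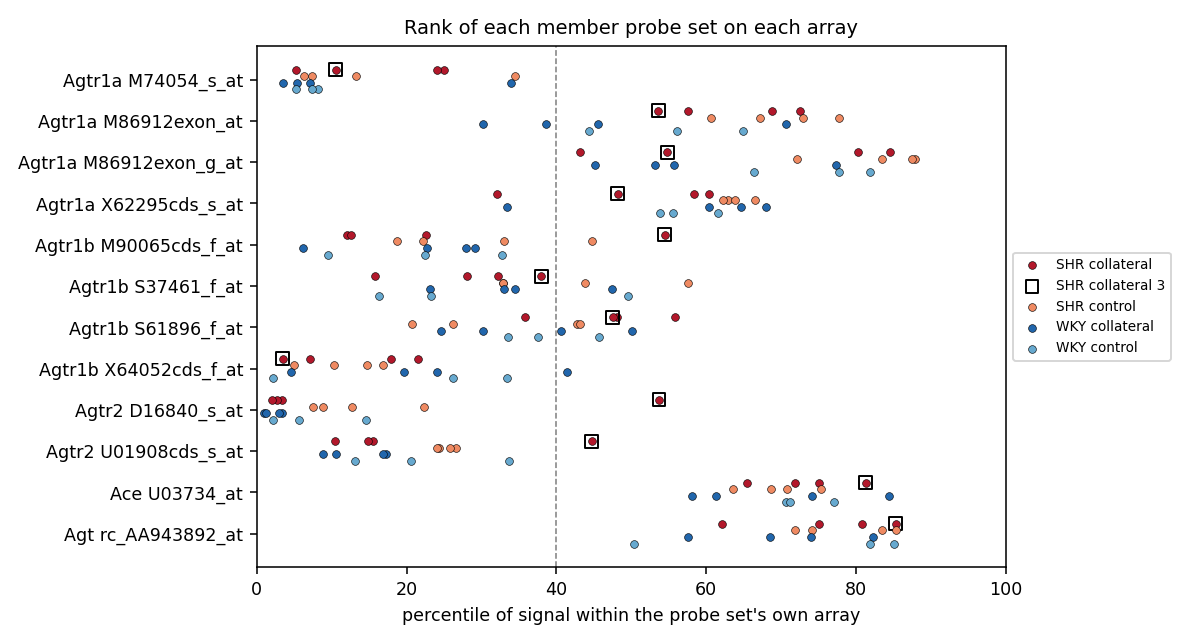
The percentile that each of the 12 member probe sets reached within its own array (horizontal axis, 0 to 100), with 1 point per array coloured by group. The dashed line is the 40th percentile used in the filter and the black squares mark SHR collateral 3. Both Agtr2 probe sets stayed left of the line on all arrays but SHR collateral 3.

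Agtr1a, the main type 1 receptor of rodent vessels, was measured by M86912exon_at (the first exon probe set), M86912exon_g_at (the second exon probe set) and X62295cds_s_at (the coding sequence probe set), where first and second give the order here and not an exon's number. The first exon probe set gave signals of 729, 461, 597 and 779 in SHR collateral arteries, 1092, 829.2, 641 and 503 in SHR control arteries, 695, 180.3, 133 and 228 in WKY collateral arteries, and 514, 390.2 and 259.8 in WKY control arteries. SHR arteries were the brighter in both vessel types, but WKY collateral 1 lay among the SHR arrays and the groups overlapped in both. The mean of the strain differences was 1.16 ± 0.34 on the log2 scale (SE; 95% interval 0.44 to 1.88), a 2.23-fold higher signal in SHR, with an unadjusted p of 0.00324 and an adjusted p of 0.132. In collateral arteries SHR lay 1.34 ± 0.46 above WKY (adjusted p = 0.517) and in control arteries 0.98 ± 0.50 above it (adjusted p = 0.820).

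Leaving out WKY collateral 1 brought this strain difference past the threshold, at 1.41 (adjusted p = 0.0289), as did array weights, at 1.24 (adjusted p = 0.0377), and the spike-in signal as a covariate, at 1.27 (adjusted p = 0.0277). Without SHR collateral 3 it was 1.17 (adjusted p = 0.127). With the 3' to 5' ratio as a covariate it was 0.51 (adjusted p = 0.830), and with the adipocyte marker sum as a covariate it was 0.86 (adjusted p = 0.341). In whole-artery RNA fewer cells of a type and less RNA per cell cannot be told apart.

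The second exon probe set of Agtr1a gave 1728, 255, 623 and 1262 in SHR collateral arteries, 2289, 2141, 1564.5 and 837 in SHR control arteries, 1022, 239, 385 and 352 in WKY collateral arteries, and 1362, 1082 and 648 in WKY control arteries. In each strain the lowest arrays were collateral arteries, yet 1 or more collateral arrays reached the control range in both. Collateral arteries lay below control arteries by a log2 difference of -1.05 ± 0.55 in SHR (adjusted p = 0.949) and -1.21 ± 0.59 in WKY (adjusted p = 0.99988). The mean of these changes was -1.13 ± 0.40 (95% interval -1.98 to -0.28), with an unadjusted p of 0.0117 and an adjusted p of 0.807, and without SHR collateral 3 it was -1.08 (adjusted p = 0.624). The first exon probe set stood at -0.41 ± 0.34 for the same mean, and the 2 changes did not differ between strains past the threshold in either probe set (differences of 0.36 ± 0.68 and 0.15 ± 0.81, adjusted p = 0.99969 for both). Between strains the second exon probe set stood at 0.77 ± 0.40 (adjusted p = 0.484).

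The exon probe sets followed each other across the 15 arrays (Pearson r = 0.797, permutation p = 0.00043; Spearman rho = 0.832, permutation p = 0.00021; 0.00172 and 0.00084 after Benjamini-Hochberg adjustment over 4 pairs). Without the 2 arrays farthest from the median r was 0.725, and over deviations from the group means it was 0.780. The names of these exon probe sets share the same sequence entry, so they are not independent readings of the gene. The coding sequence probe set followed neither, with r of 0.0018 and -0.011 (adjusted permutation p = 0.99562 for both). Its rho was -0.021 and -0.025 (adjusted permutation p = 0.944 for both). Probe sequences were not examined, so whether the coding sequence probe set also reads Agtr1b RNA is not known.

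The coding sequence probe set gave 142, 477, 489.7 and 408 in SHR collateral arteries, 632, 524, 516 and 575 in SHR control arteries, 419, 578, 725 and 127 in WKY collateral arteries, and 439.8, 351 and 417 in WKY control arteries. All SHR collateral arrays lay below all SHR control arrays, as 0.814% of probe sets did, with a log2 difference of -0.71 ± 0.51 (adjusted p = 0.949; exact permutation p = 0.0286, two-sided, the smallest that 4 against 4 arrays allow). All SHR control arrays also lay above all WKY control arrays, as 4.85% of probe sets did, by 0.48 ± 0.55 (adjusted p = 0.99916; exact permutation p = 0.0571, the smallest for 4 against 3). Without SHR collateral 1 the difference within SHR was -0.29. In the mean over vessel types the strain difference was 0.15 ± 0.37, and its sign turned without WKY collateral 4 (-0.12) and under quantile normalization, array weights and the 3' to 5' covariate. The fourth Agtr1a probe set, M74054_s_at, stayed between 16.6 and 147 and below the filter.

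**Figure D2:**
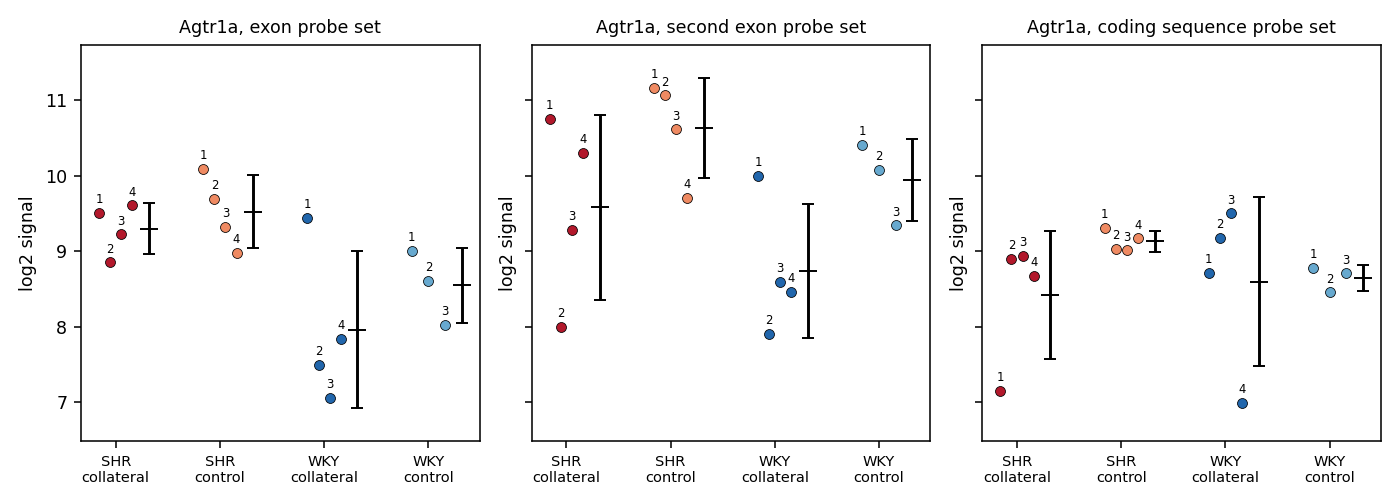
Log2 signal (vertical axis, shared) of the 3 Agtr1a probe sets that were tested, with 1 numbered point per array in the 4 groups and bars for the mean ± SD. In the first panel WKY collateral 1 sits apart from the other 3 WKY collateral arrays, and in the second both collateral groups reach lower than their control groups.

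In group means the first exon probe set ran SHR control (9.52 ± 0.48, SD), SHR collateral (9.30 ± 0.34), WKY control (8.54 ± 0.50) and WKY collateral (7.96 ± 1.04) from high to low in log2 signal, and only the step between SHR collateral and WKY control, 0.75, exceeded the larger SD of the 2 neighbours. In the second exon probe set the top step, from SHR control (10.64 ± 0.66) to WKY control (9.94 ± 0.55), exceeded it, and in the coding sequence probe set the step from SHR control (9.13 ± 0.14) to WKY control (8.65 ± 0.17) did. Of the 21 steps between neighbouring groups in the 7 tested member probe sets, these were the 3 beyond the SD.

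Fat surrounds mesenteric arteries, and markers of it moved with the second exon probe set of Agtr1a. Whether the other Agtr1a probe sets moved with them was not computed. The summed signal of the 10 of 13 adipocyte markers on the array was 9742 to 52122 in SHR collateral arteries (median 32883), 8384 to 88175 in SHR control arteries (median 48745.5), 5531 to 20193 in WKY collateral arteries (median 14117) and 10277 to 44225 in WKY control arteries (median 23472), with none of them at 0. Its log2 value followed the second exon probe set of Agtr1a over the 15 arrays (r = 0.771, permutation p = 0.0010, adjusted p = 0.0400; rho = 0.821, permutation p = 0.00039, adjusted p = 0.0156; 40 relations of 4 members with 10 cell type lists). Without the 2 arrays farthest from the median r was 0.692, without SHR collateral 3 it was 0.773, and over deviations from group means it was 0.715. With this sum as a covariate the mean collateral change of the second exon probe set was -0.78 (unadjusted p = 0.0300, adjusted p = 0.904) and its mean strain difference 0.28 (adjusted p = 0.740). Markers of fibroblasts and adventitia, 9 of 11 on the array with none at 0, summed to 250302 to 413475 in SHR collateral arteries, 340651 to 516307 in SHR control arteries, 281322 to 362342 in WKY collateral arteries and 348925 to 428633 in WKY control arteries, and their part in the collateral change was not tested. Smooth muscle markers ran against the same probe set (r = -0.444, rho = -0.661, adjusted permutation p = 0.460 and 0.0970), and r was -0.814 without SHR collateral 3 and -0.460 over deviations from group means with all 15 arrays. Nerve and glia markers ran with this probe set (r = 0.677, rho = 0.643, adjusted permutation p = 0.0852 and 0.0970). Over deviations from group means their r was 0.712, close to that of the adipocyte markers. Apart from the adipocyte relation, none of the 40 passed an adjusted p of 0.05 over the 15 arrays.

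The probe sets most like the second exon probe set of Agtr1a, of 5271 compared, were those of Hibadh, an enzyme of valine breakdown (r = 0.889), Efemp1, an extracellular matrix glycoprotein (0.880), Selenop, the plasma selenium carrier (0.878), and Xdh, which makes uric acid (0.870), each value being the lower of r over 15 arrays and over the 14 without SHR collateral 3. By the same measure Bcan, a brain proteoglycan, was most like the Agtr1b probe set S61896_f_at (r = 0.831, 5272 compared), the histone gene Hist4h4 most like Ace (r = 0.850, 5273 compared) and Asph, an aspartyl hydroxylase, most like Agt (r = 0.792, 5273 compared). These values are the highest of many and share arrays and scaling with the members, so they are a description.

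Agtr1b, the second type 1 receptor gene of rodents, was near the filter on low signal. Its probe sets carry the suffix f, which marks sets that the maker designed for a sequence family, so signal from Agtr1a cannot be told apart from that of Agtr1b. S61896_f_at gave 413, 311, 477 and 114 in SHR collateral arteries, 211, 95.2, 69.0 and 239 in SHR control arteries, 163, 95.5, 335 and 107.5 in WKY collateral arteries, and 139.8, 244 and 154 in WKY control arteries. In SHR 3 of 4 collateral arrays lay above every control array, and the fourth fell among them. The SHR collateral change was 1.10 ± 0.61 (95% interval -0.18 to 2.38, adjusted p = 0.949; 0.86 without SHR collateral 3), and the WKY change was -0.17 ± 0.66. The difference of these changes, 1.27 ± 0.90, was the largest among the 7 tested member probe sets, with an unadjusted p of 0.171 and an adjusted p of 0.99969.

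The other tested probe set of Agtr1b, S37461_f_at, did not follow the first (r = -0.130, rho = -0.204, permutation p = 0.640 and 0.467, adjusted 0.99562 and 0.934). It gave 64.9, 155, 341 and 71.7 in SHR collateral arteries, 132, 407, 129 and 244 in SHR control arteries, 107.5, 266, 96.2 and 135 in WKY collateral arteries, and 252, 80.0 and 62.8 in WKY control arteries. Here the SHR collateral change was -0.70 ± 0.68 (adjusted p = 0.949; -1.18 without SHR collateral 3), the opposite sign, so the Agtr1b probe sets gave no common direction. The remaining 2, M90065cds_f_at and X64052cds_f_at, lay below the filter, at 28.7 to 617 and 16.2 to 204.

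Agtr2, the type 2 receptor, was dim. D16840_s_at gave 24.95, 22.8, 599.5 and 6.9 in SHR collateral arteries, 76.3, 29.4, 32.2 and 51.2 in SHR control arteries, 5.5, 23.1, 22.2 and 9.5 in WKY collateral arteries, and 41.8, 25.7 and 17.7 in WKY control arteries. U01908cds_s_at reached 436 on SHR collateral 3 and 22.1 to 134 on the other 14 arrays. The single bright value of each was on the array that stood apart and had a raised low end of signal. Over the 5 member probe sets below the filter, 20 exact permutation tests between groups gave p-values of 0.171 or more, two-sided, and the groups overlapped in all 20.

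Ace, the converting enzyme, gave 834.5, 964.5, 1592 and 533 in SHR collateral arteries, 545, 754, 932 and 716 in SHR control arteries, 848, 428, 1680.4 and 455 in WKY collateral arteries, and 989, 765 and 820.1 in WKY control arteries. The groups overlapped in each comparison, and collateral arteries spread more widely than control arteries in both strains. The collateral change was 0.33 ± 0.42 in SHR (95% interval -0.55 to 1.21, adjusted p = 0.949; 0.060 without SHR collateral 3) and -0.23 ± 0.45 in WKY (95% interval -1.18 to 0.72, adjusted p = 0.99988), and the mean strain difference was 0.04 ± 0.31 (95% interval -0.60 to 0.69, adjusted p = 0.979). The last changed sign without SHR collateral 3 (-0.091), SHR control 3 (-0.017), WKY collateral 2 (-0.083) or WKY collateral 4 (-0.069), with equal array medians and with the spike-in covariate, and the WKY change did without WKY collateral 2 (0.021).

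Agt, the precursor of all angiotensins, gave 540.4, 1317, 1908 and 922 in SHR collateral arteries, 1562, 785, 1839 and 919 in SHR control arteries, 838, 689.8, 1435 and 384 in WKY collateral arteries, and 1368.5, 1734 and 335 in WKY control arteries. Within SHR collateral, WKY collateral and WKY control arteries the brightest array was several times the dimmest, and all groups overlapped. Collateral changes were -0.18 ± 0.52 in SHR (adjusted p = 0.964) and -0.30 ± 0.56 in WKY (adjusted p = 0.99988), and SHR stood 0.43 ± 0.38 above WKY (95% interval -0.37 to 1.24, adjusted p = 0.746). The SHR change turned positive without SHR collateral 1 (0.14) or SHR control 3 (0.023), and the WKY change without WKY collateral 4 (0.020) or WKY control 2 (0.15). The 9 liver markers summed to 1568 to 11042 in SHR collateral arteries, 2217 to 4160 in SHR control arteries, 2096 to 3980 in WKY collateral arteries and 1934 to 2878 in WKY control arteries, which overlapped between groups.

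**Figure D3:**
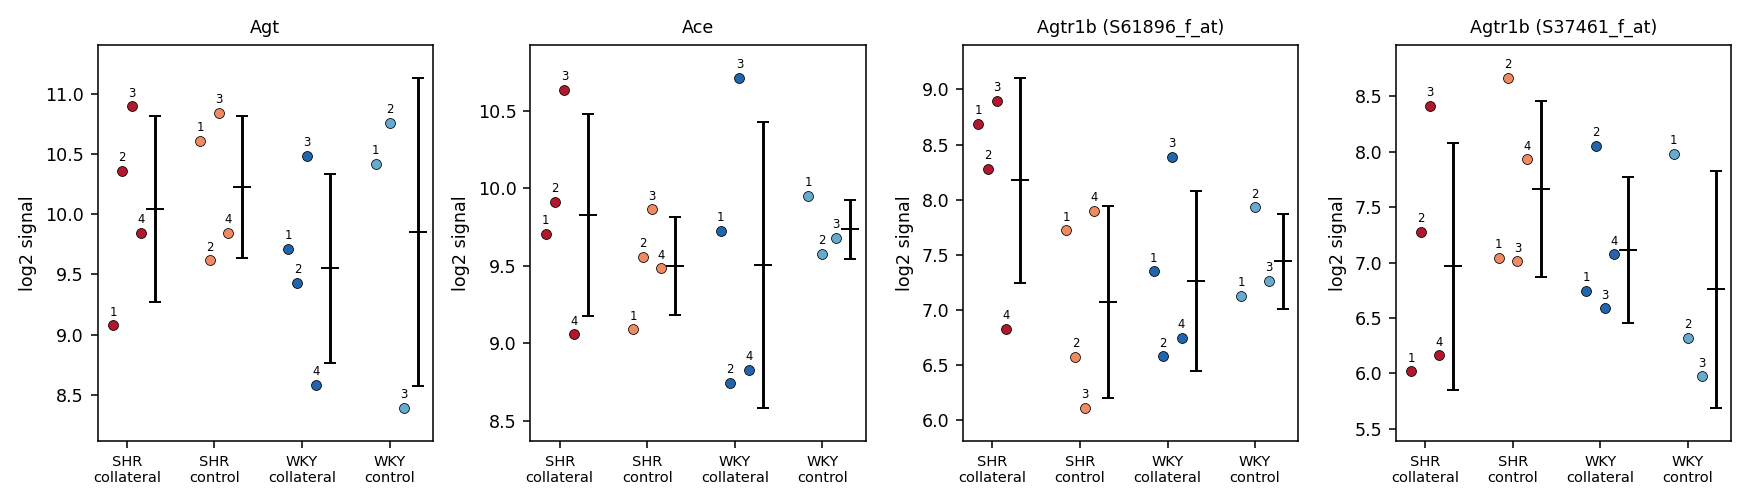
Log2 signal (vertical axis, scaled per panel) of Agt, Ace and the 2 tested Agtr1b probe sets, with 1 numbered point per array in the 4 groups and bars for the mean ± SD. The 4 groups overlap in every panel, and the Agtr1b panels differ in the order of their groups.

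Set beside each other, 5 of 7 member probe sets had negative mean collateral changes, with a median of -0.24 against 0.04 over all 6512 probe sets tested, and 7 of 7 had positive mean strain differences (median 0.38 against 0.07). The probe sets of a gene share its RNA. Over all probe sets tested, 54.4% had a mean collateral change above 0 and 56.9% a mean strain difference above 0.

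**Figure D4:**
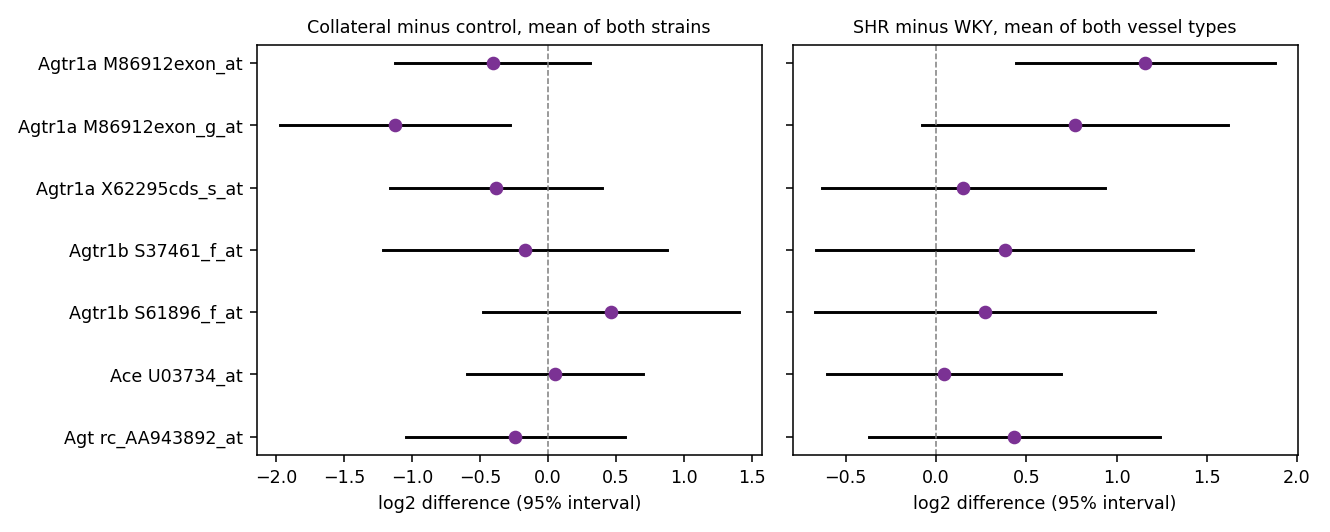
Log2 differences of the 7 tested member probe sets (points) with 95% intervals (lines), for collateral minus control arteries averaged over both strains (left) and SHR minus WKY averaged over both vessel types (right). The interval lies off 0 for the second exon probe set of Agtr1a on the left and for the first on the right.

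Of 31 other genes of the system, 22 were on the array and 15 passed the filter with their brightest probe set. Renin was not analysed here. In the mean of the strain differences 1 of the 15 rose in SHR and 0 fell, against 0.891% called over all probe sets, and 3 had an unadjusted p under 0.05, against 11.9%. The median was 0.18 against 0.04 over 3825 genes. In the other comparisons 0 passed the adjusted threshold, with 0 to 3 of 15 at an unadjusted p under 0.05, against 1.9% to 7.62% over all probe sets. The gene that rose was Cma1, a mast cell chymase; the human enzyme forms angiotensin II without ACE.

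Cma1 (U67908_at) gave 1909, 1034, 2398 and 1249 in SHR collateral arteries, 2352, 1381, 3824 and 1341 in SHR control arteries, 611, 976, 660.3 and 814 in WKY collateral arteries, and 626, 1078 and 768 in WKY control arteries. SHR and WKY did not overlap in collateral arteries, as for 2.07% of probe sets in this direction, nor in control arteries, as for 4.85%. The mean strain difference was 1.19 ± 0.27 (95% interval 0.63 to 1.75, adjusted p = 0.0376), and its collateral change was -0.23 ± 0.27. The call was lost without any 1 of 10 arrays, namely SHR collateral 1, SHR control 1 and 3, and all WKY collateral and WKY control arrays, over which the difference stayed between 1.04 and 1.30 with an adjusted p of at most 0.112, and with the 3' to 5' ratio (1.47, adjusted p = 0.237) or the adipocyte sum (1.03, adjusted p = 0.153) as a covariate.

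Cpa3, the mast cell carboxypeptidase, which can trim angiotensin I, gave 292, 323, 591 and 379.5 in SHR collateral arteries and 38.8, 42.3, 242 and 49.9 in WKY collateral arteries, with no overlap, as for 2.07% of probe sets. In control arteries it gave 458.5, 259, 624 and 158 in SHR and 227, 75.3 and 125 in WKY, which overlapped. Its mean strain difference was 1.93 ± 0.47 (adjusted p = 0.0642), and leaving out SHR control 4 (2.11, adjusted p = 0.0371) or WKY collateral 3 (2.24, adjusted p = 0.0167) brought it past the threshold. It also passed with array weights (1.95, adjusted p = 0.0172) and with the spike-in covariate (1.87, adjusted p = 0.0495). The other 7 mast cell markers on the array summed to 2314 to 5785 in SHR collateral arteries, 2833 to 3187 in SHR control arteries, 1857 to 3340 in WKY collateral arteries and 2145 to 3657 in WKY control arteries, which overlapped, and none was at 0. Of all 9 mast cell markers on the array, Cma1 and Cpa3 included, only 4 passed the filter on low signal. Most markers in this sum were therefore below the filter, and the sum says little about mast cell content. Ctsb, the lysosomal protease cathepsin B, stood at 0.76 ± 0.23 (adjusted p = 0.136), and it passed without SHR control 4 (0.88, adjusted p = 0.0499). Ctsd, the lysosomal aspartic protease cathepsin D, stood at 0.02 ± 0.27. Macrophage and monocyte markers, 8 of 13 on the array with none at 0, summed to 17113 to 31135 in SHR collateral arteries, 6520 to 46179 in SHR control arteries, 4621 to 19625 in WKY collateral arteries and 3246 to 6371 in WKY control arteries, higher in SHR than in WKY control arteries without overlap, and their part in the Ctsb value was not tested.

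**Figure D5:**
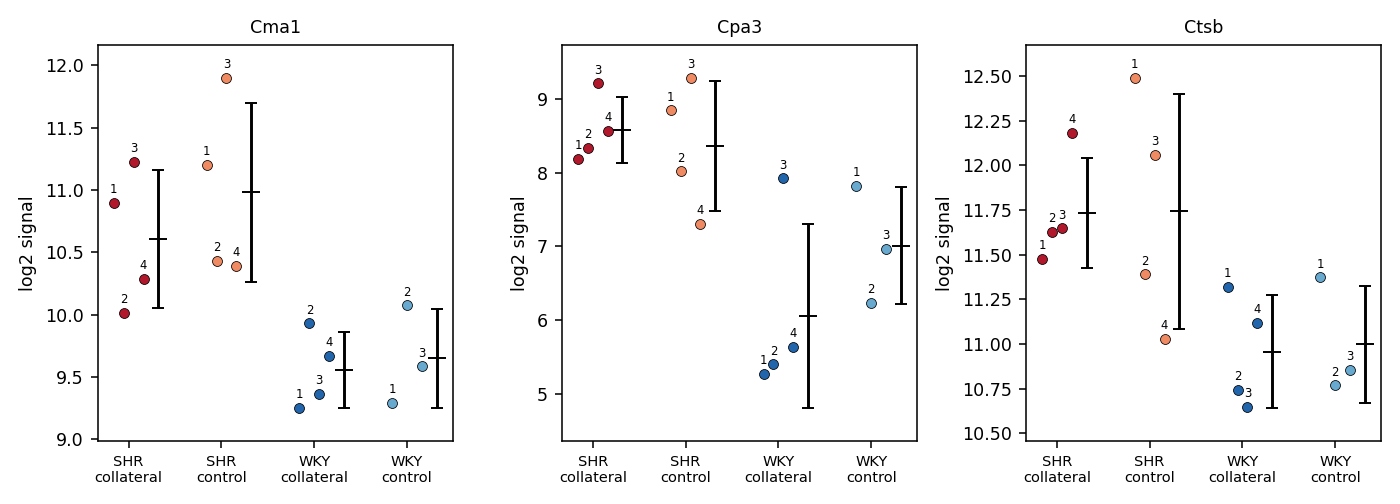
Log2 signal (vertical axis, scaled per panel) of Cma1, Cpa3 and Ctsb, with 1 numbered point per array in the 4 groups and bars for the mean ± SD. All SHR points of Cma1 lie above the WKY points of the same vessel type, as do those of Cpa3 and Ctsb in collateral arteries.

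Of 5 further peptidases that cut angiotensins (Anpep, Lnpep, Thop1, Prep and Nln), 0 passed the adjusted threshold between strains (limma), and 0 of their brightest probe sets had an unadjusted p under 0.05. The aminopeptidase Anpep stood at -0.15 ± 0.31 in its brightest probe set, but at 0.92 ± 0.46 (adjusted p = 0.444) and 0.57 ± 0.56 (adjusted p = 0.777) in M25073_at and AF039890mRNA_s_at. M25073_at was higher in SHR than in WKY collateral arteries without overlap (16 of 16 pairs, exact permutation p = 0.0286), as for 2.07% of probe sets, so the Anpep probe sets gave no common direction. Lnpep, also a binding site for angiotensin IV, stood at -0.21 ± 0.46, Thop1, which makes angiotensin 1-7 from angiotensin I, at 0.54 ± 0.32 and Prep at 0.06 ± 0.25, with adjusted p-values between 0.560 and 0.964. Mas1, the angiotensin 1-7 receptor, and Enpep, aminopeptidase A, were below the filter, at 6.0 to 250 and 18.8 to 165.

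Hormone systems that meet the renin-angiotensin system gave few differences. Klk1, tissue kallikrein, which releases kinins that ACE destroys, gave 356, 509.6, 457.5 and 586 in WKY collateral arteries and 229.7, 259.6 and 127 in WKY control arteries (M19647_f_at), with no overlap, as for 3.61% of probe sets in this direction; the change was 1.26 ± 0.52 (adjusted p = 0.99988). In SHR the same probe set gave 138, 693, 485.5 and 197 in collateral arteries and 389, 403, 355 and 428 in control arteries, which overlapped. The difference of the collateral changes, SHR minus WKY, was -1.60 ± 0.71 (unadjusted p = 0.0353, adjusted p = 0.99969). Kallikrein genes are near-identical copies and this probe set is built for the family. The kinin receptor Bdkrb1 stood at 0.18 ± 0.33 between strains, the mineralocorticoid receptor Nr3c2, through which aldosterone acts, at -0.03 ± 0.29 (-0.71 ± 0.39 in its other probe set, M36074_g_at, adjusted p = 0.499), the glucocorticoid receptor Nr3c1 at -0.35 ± 0.28 and Hsd11b1, which regenerates glucocorticoid, at 0.38 ± 0.24, with adjusted p-values between 0.597 and 0.984 for their brightest probe sets.

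Downstream of the type 1 receptor, 46 of 69 signalling genes were tested, and 0 passed the adjusted threshold in any comparison. In the mean of the strain differences 4 were higher and 5 lower at an unadjusted p under 0.05 (6.73% and 5.13% of all probe sets), with a median of -0.06 against 0.04. Cyba, a subunit of the NADPH oxidase that angiotensin II activates, stood at 1.34 ± 0.40 (adjusted p = 0.140). Array weights (1.67, adjusted p = 0.0148) or the spike-in covariate (1.46, adjusted p = 0.0464) brought it past the threshold. Hbegf, a growth factor shed on type 1 receptor activation, stood at -0.91 ± 0.31 (adjusted p = 0.217). In the mean of the collateral changes 1 was lower at an unadjusted p under 0.05, the transcription factor Stat3, at -0.75 ± 0.31 (adjusted p = 0.923).

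Of 38 genes that angiotensin II is known to induce, 28 were tested, and 3 fell in SHR in the mean of the strain differences: Dusp1, a phosphatase that switches off MAP kinases, with a log2 difference of -1.75 ± 0.28 (adjusted p = 0.00484), and the adhesion molecules Vcam1, with -2.40 ± 0.46 (adjusted p = 0.0121), and Icam1, with -1.33 ± 0.31 (adjusted p = 0.0431). None rose past the adjusted threshold (limma). Over all probe sets 0.891% were called. At an unadjusted p under 0.05, 12 of the 28 were lower and 2 higher, against 5.13% and 6.73% of all probe sets, and the median was -0.59 against 0.04 over all genes. The list was chosen with earlier results of these data known and holds genes that many other stimuli also induce. It counts 1 probe set per gene, the brightest, beside shares of all probe sets. These counts are therefore a description and not a test. Other probe sets of these genes were lower too but did not pass, at -1.02 (adjusted p = 0.500) and -0.84 (adjusted p = 0.319) for Dusp1, -1.33 (adjusted p = 0.170) for Vcam1 and -0.43 (adjusted p = 0.769) for Icam1.

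Dusp1 gave 1249, 3724, 1620.3 and 2694.5 in SHR collateral arteries and 6523.5, 5619, 5838 and 6327 in WKY collateral arteries, and 1129.9, 4475, 2556 and 2880.2 in SHR control arteries against 13978, 8365.5 and 8026 in WKY control arteries. The strains did not overlap in either vessel type, as for 1.55% of probe sets in collateral and 3.72% in control arteries. Vcam1 gave 6754.5, 4912, 1124 and 2627 in SHR collateral arteries and 29646, 14468, 19794 and 3624 in WKY collateral arteries, where WKY collateral 4 lay among the SHR arrays. In control arteries it gave 7938, 4131, 1868 and 2169.7 in SHR and 34710.2, 12961.5 and 24901 in WKY, with no overlap.

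The 3' to 5' ratio as a covariate ended all 3 calls without a smaller difference for Vcam1 (-3.15, adjusted p = 0.0632) and Icam1 (-1.87, adjusted p = 0.109), and with -1.70 for Dusp1 (adjusted p = 0.166). The Vcam1 call was also lost without WKY control 1 (-2.24, adjusted p = 0.0511). The Icam1 call was lost without any 1 of 11 arrays, the exceptions being SHR collateral 3, SHR control 1, WKY collateral 4 and WKY control 2, over which it stayed between -1.36 and -1.17 with an adjusted p of at most 0.131. Egr1, an immediate early transcription factor, stood at -1.52 ± 0.39 (adjusted p = 0.0811), and it passed without SHR collateral 2 (-1.80, adjusted p = 0.0118), after quantile normalization (-1.50, adjusted p = 0.0284) and when arrays were weighted (-1.53, adjusted p = 0.0172). Of the 3 other probe sets of Egr1, M18416_at stood at -1.96 (adjusted p = 0.0115), and U75398_s_at at -0.054 (adjusted p = 0.973). The 11 of 15 endothelial markers on the array summed to 5335 to 12291 in SHR collateral arteries and 13276 to 18367 in WKY collateral arteries. In control arteries they summed to 6322 to 7073 in SHR and 8531 to 11884 in WKY. The sums did not overlap between strains, and none of the markers was at 0. A sum leans on its brightest markers, and the single markers went both ways. In the mean of the strain differences 5 of the 11 were higher in SHR. At an unadjusted p under 0.05 (limma), 2 were higher and 5 lower, against 6.73% and 5.13% of all probe sets. Past the adjusted threshold 1 was lower and 0 higher, against 0.891% called over all probe sets. The median of the 11 was -0.49, against 0.04 over all tested genes. In SHR against WKY control arteries 1 of the 11 was called lower, against 0.0307% called over all probe sets. The part of these markers in the adhesion molecule differences was not tested.

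In the mean of the collateral changes 3 genes of this list were higher and 4 lower at an unadjusted p under 0.05, with 0 past the adjusted threshold, against 2.53% and 2.58% of all probe sets. Olr1, the receptor for oxidised LDL, stood at 1.25 ± 0.40, the chemokine Ccl2 at 0.94 ± 0.31 and the AP-1 subunit Jun at -1.47 ± 0.48 (adjusted p = 0.807 for each). The other probe sets of Jun ranged from -1.27 to -0.01 and those of Olr1 and Ccl2 stood at 1.24 and 0.99.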

How the data were processed

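The authors' deposited signal values, 1 per probe set and array and never negative, came from GCOS and MAS5, per the submitters' processing notes; their versions were not stated there. Labelled RNA was made from small amounts, per the labels' protocols. The deposited signals were already scaled: the mean after trimming 2% was 981 to 993 on every array, so values compare across arrays on the assumption of similar total RNA. Neither detection calls nor scanner images were used. Samples were grouped by strain and vessel type from the labels.

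Signals were floored at 1 (12 values lay below) and taken to log2. Of 8799 probe sets, 59 controls were left out. Testing required a signal at or above the 40th percentile of the same array on 3 or more arrays, and 6512 probe sets met this. Names were those of the platform annotation: 7006 probe sets had 1 symbol, 308 several and 1426 none, and only the first kind was named. A further probe set with Ace among several symbols was left out. Promoters were looked up by symbol in RefSeq, and 4 of 5 members were found; Agt was not among them.

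limma 3.58.1 in R 4.3.3 fitted 4 group means to all 15 arrays together, letting the variance follow mean signal (degrees of freedom 11 residual, 7.19 prior), two-sided, with Benjamini-Hochberg adjustment at 0.05. All fits were tested on simulated data. Single probe sets were also compared by exact permutation of arrays (scipy 1.17.1), and correlations by 100000 permutations. The number of arrays limits the precision, and a log2 difference had a median standard error of 0.49.

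The members and gene lists were chosen with earlier results of these data known. All member probe sets are named; of each list, up to 4 genes per comparison with the smallest unadjusted p under 0.05, any gene of the system's own list, and up to 5 probe sets per member with the most similar signal. Lists used 1 probe set per gene, the brightest, and were counted, not tested. Besides smooth muscle, endothelial, adipocyte, mast cell and liver markers, those of fibroblasts, macrophages, lymphocytes, nerve and blood cells were summed.

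Alternatives were quantile normalization, equal array medians, array weights, a constant of 68.5 added to signals, omitting the filter or setting it at the 60th percentile, omitting the variance trend, fitting the compared arrays alone, replicate numbers as a fixed or random block, a threshold of 0.1, and each array left out. Covariates for 3' to 5' ratio, spike-in signal and adipocyte marker sum were chosen after seeing the data.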

Additional observations from a re-analysis of the deposited data

Results flagged for a closer look

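Of 36 groups of 4 arrays of member probe sets, 2 held an array whose gap to the nearest of the others exceeded the 95% critical value of Dixon's test, where chance gives 5%, or 1.8 of 36. For the coding sequence probe set of Agtr1a (X62295cds_s_at) it was SHR collateral 1, with a signal of 142.2 against 408 to 489.7 on the other 3 SHR collateral arrays. For the Agtr1b probe set M90065cds_f_at it was SHR collateral 3, with 616.8 against 51.0 to 56.3. The second is the array that stood apart in spike-in and low-end signal.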

How the results depend on the processing

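For 43 differences of members and named genes, 1174 values were recomputed: 1105 kept direction and side of the threshold, 36 lost a call, 17 gained one and 16 changed direction. No member was called in 6 of the 7 comparisons under any alternative. In the mean of the strain differences 1 was called (Agtr1a, first exon probe set) with array weights and with the spike-in covariate, and 0 to 1 with an array left out. Its difference ran between 0.51 and 1.27 over the alternatives and between 1.01 and 1.41 with an array left out.

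The changes of direction all concerned differences smaller than their standard error, the largest being -0.30 ± 0.56 for Agt in WKY. Their cause was not tested. For Agtr1a X62295cds_s_at the mean strain difference was -0.0024 with quantile normalization, -0.058 with array weights, -0.17 with the 3' to 5' covariate, and -0.12 to 0.36 with an array left out. For Ace the mean strain difference was -0.094 with equal array medians, -0.040 with the spike-in covariate and -0.091 to 0.25 with an array left out, and the WKY collateral change was -0.64 to 0.021. For Agt the collateral change was -0.47 to 0.14 in SHR and -1.04 to 0.15 in WKY with an array left out, and 0.020 in WKY with the replicate number as a fixed block.

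Same-numbered collateral and control arrays deviated together with correlations of -0.070 to 0.080 in SHR and 0.016 to 0.31 in WKY. Differently numbered arrays gave -0.089 to 0.10 in SHR and -0.27 to 0.11 in WKY. The same-numbered values 0.31 and 0.17 in WKY lay above all differently numbered ones there. The main fit did not take the numbers as pairs, and these few values do not settle whether they were pairs in WKY. For the strain differences the fixed replicate block treated each number as shared by both strains and both vessel types. With it the probe sets called in the mean of the strain differences were 134 against 58 without it. Agtr1a's first exon probe set then stood at 1.18 (adjusted p = 0.0538), and 0 members were called.

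Calls over all probe sets depended on the processing. In the mean of the strain differences 58 became 3 with the 3' to 5' covariate, 33 with the adipocyte covariate, 31 with equal medians, 34 with no variance trend, 101 with the spike-in covariate, 119 at a threshold of 0.1 and 184 with array weights, and 31 to 101 with an array left out (101 without SHR control 4, and 31 to 37 without SHR collateral 1, SHR control 1 or 3, WKY collateral 2, or WKY control 1 or 3). For SHR against WKY the 2 calls in control arteries ran 0 to 14 and the 0 in collateral arteries 0 to 26. Of the other calls, Cma1 was lost under quantile normalization (1.15), equal medians (1.05) and no variance trend (1.19), Vcam1 under no variance trend (-2.40), and Icam1 under quantile normalization (-1.27), equal medians (-1.46), no filter (-1.33), no variance trend (-1.33) and the random block (-1.31). The 17 gained calls were 3 of Agtr1a, 5 of Cpa3, 2 of Ctsb, 3 of Cyba and 4 of Egr1, all in the mean of the strain differences; Ctsb gained one with the spike-in covariate (0.82, adjusted p = 0.0393), and the fixed replicate block gained calls for Cpa3 (2.02, adjusted p = 0.0237), Cyba (1.38, adjusted p = 0.0409) and Egr1 (-1.55, adjusted p = 0.0250). Agtr2 was limited by signal over background and had no usable level.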
